A study of Mus musculus with 56 samples.

Results

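The data described here are the expression levels of 50 ribosome biogenesis genes, out of 47937 genes listed, in CD4+ T cells from mice with a T cell deletion of ornithine decarboxylase (Odc) or deoxyhypusine hydroxylase (Dohh) and in their WT controls. The members were chosen by function, as genes of the nucleolus, of small nucleolar ribonucleoproteins (snoRNPs), of RNA polymerase I and of pre-ribosome assembly, and they were matched to the tables by Ensembl identifier. All 50 were found, and all 50 passed the filter on low counts in both tables.

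Naive CD4+ T cells were taken from C57BL/6 mice and polarized in culture for 4 days into TH1, TH2, TH17 and Treg cells, and polyadenylated RNA was sequenced with a stranded kit. Cells labelled Odc-/- came from mice in which CD4-driven Cre deletes loxP-flanked exons 9 to 11 of Odc, and cells labelled Dohh-/- from mice in which it deletes exons 2 to 4 of Dohh. WT cells came from littermates without Cre, and mice were typically 6 to 10 weeks old. One table holds 16 WT libraries and 15 labelled Odc-/- (4 per group, 3 for TH2 cells labelled Odc-/-, whose replicate 1 was not analysed here), and the other holds 12 WT libraries and 12 labelled Dohh-/- (3 per group). CD4-driven Cre acts in developing thymocytes, before the cells are cultured. Bulk RNA cannot tell fewer cells of a type from less RNA per cell.

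Ribosome biogenesis starts in the nucleolus, where RNA polymerase I transcribes the ribosomal RNA precursor. Box C/D and box H/ACA snoRNPs methylate and pseudouridylate this RNA, the small-subunit processome folds and cleaves it, and a separate set of factors builds the large subunit before both particles are exported. The pathway is among the costliest of a growing cell and is switched on when T cells are activated. Odc makes putrescine, the precursor of spermidine, and spermidine donates the group from which Dohh completes hypusine, an amino acid found in the translation factor eIF5A. The comparisons address how the RNA of this machinery differs when either step of that pathway is lost.

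Total counts ranged from 5905374 to 9145214 per library of the Odc experiment, with 6572148 to 12576933 for Dohh, so that 3 counts, the most a count of 0 allows at the 95% level, correspond to 0.310 to 0.499 and to 0.226 to 0.473 CPM (counts divided by the library total after adjusting that total by its TMM scaling factor). Such limits cover counting error only. The counts cover all exons, and the targeted genes were not lower across the labelled libraries. Odc1 was lower only in TH17 cells of the Odc table (-0.40 on the log2 scale), and Dohh was higher in 3 of the 4 subsets of the Dohh table (1.43, 1.10 and 1.15 in TH1, TH2 and Treg cells). The genotypes are therefore given as labelled. Summed levels of 9 CD4+ T cell markers were 2573 to 4466 CPM in WT and 2388 to 4024 CPM in labelled libraries of the Odc table, and 3659 to 4825 and 1878 to 3950.4 CPM in the Dohh table. One library of TH1 cells labelled Dohh-/- (replicate 2) had the lowest scaling factor of all, 0.752.

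In the Odc table, WT replicate 4 stood apart from the other WT libraries in these genes. The deviation of each gene's log2 CPM from its WT mean, taken as the median over the 50 genes, was 0.55 in TH1, 0.36 in TH2, 0.41 in TH17 and 0.92 in Treg cells for that replicate, while the other WT libraries lay between -0.46 and -0.025. In TH17 cells this value exceeded the 0.40 of replicate 1 labelled Odc-/-. Its summed CPM of 24 cell cycle genes was the highest of the 4 WT libraries in TH17 (6694 against 4889 to 5153) and Treg cells (7129 against 5282 to 6189) and the lowest in TH1 (3953) and TH2 cells (4195). The counts of members called in the Odc table, and the values of members whose call this replicate changes most, are also given without it, an alternative chosen after the data were seen.

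**Figure D1:**
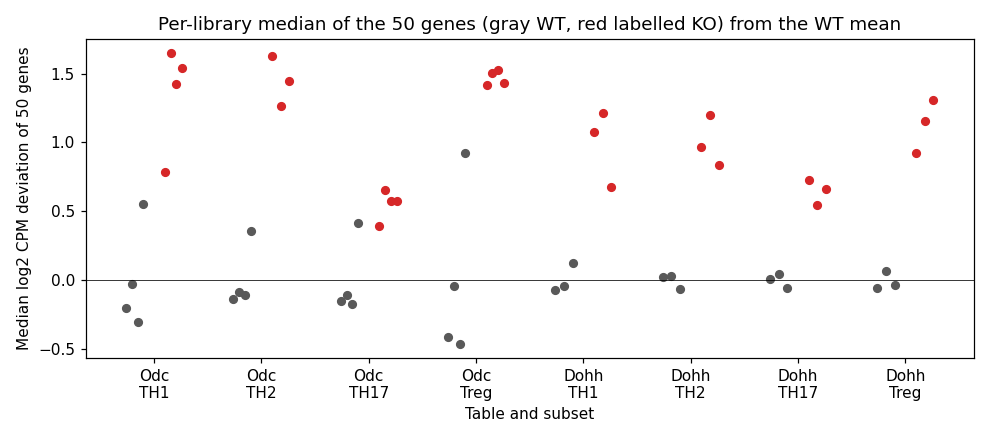
Median over the 50 genes of the deviation of log2 CPM from the WT mean of the same table and subset (vertical axis), for each library of each subset (horizontal axis), with WT libraries in gray and labelled libraries in red. Labelled libraries lie above every WT library of their group except in TH17 cells of the Odc table, where WT replicate 4 (0.41) lies above 1 labelled library (0.40).

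Most of the 50 genes rose in the labelled libraries in 7 of the 8 comparisons. In the eighth, TH17 cells of the Odc table, 21 passed the test and 1 of the 50 had a log2 fold change below 0. In the Odc table, 48 rose in TH1 cells, 48 in TH2, 21 in TH17 and 47 in Treg cells (edgeR quasi-likelihood test, Benjamini-Hochberg adjusted p below 0.05). Of all genes tested, 29.1%, 29.9%, 25.6% and 32.9% rose in these comparisons. In the Dohh table, 48 rose in TH1 cells, 40 in TH2, 34 in TH17 and 47 in Treg cells, where 25.9%, 23.8%, 27.0% and 28.4% of all genes rose. A rise of more than 2-fold was called for 38, 39, 3 and 36 members in TH1, TH2, TH17 and Treg cells of the Odc table, against 10.2%, 11.5%, 8.35% and 13.9% of all genes. For Dohh it was called for 24, 25, 14 and 30, against 14.8%, 14.3%, 17.3% and 17.5%. Without WT replicate 4, 49, 48, 40 and 49 members rose in TH1, TH2, TH17 and Treg cells of the Odc table, 39, 39, 11 and 41 of them over 2-fold, with medians of 1.54, 1.61, 0.73 and 1.76 on the log2 scale. Of all genes tested, 31%, 31.3%, 29.5% and 35.5% rose in that fit. In TH17 cells of the Odc table, 37 were called when only their own libraries were fitted and 35 with a block for the replicate number. Both exceed the main count by over 1.5 times, and leaving out WT replicate 1 or 3 of the TH17 libraries gave 11 or 13. Shares of all genes are not given for these fits, nor for changes over 2-fold without WT replicate 4.

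The median log2 fold change of the members was 1.35 in TH1, 1.45 in TH2, 0.54 in TH17 and 1.33 in Treg cells of the Odc table, and 0.99, 0.99, 0.62 and 1.14 in the Dohh table. The median of all genes tested lay between -0.0019 and 0.073. Every labelled library lay above every WT library for 44, 48, 21 and 41 members in the Odc table, against 21.9%, 30.6%, 21.5% and 25.2% of all genes, and for 44, 46, 39 and 47 members in the Dohh table, against 23.7%, 31.9%, 29.9% and 34.3%. The counts of the Odc table without WT replicate 4 were 48, 49, 48 and 49, against 29%, 34.6%, 30.5% and 33.5% of all genes. With edgeR no member fell in 7 of the 8 comparisons, either at an adjusted or at an unadjusted p below 0.05, and DESeq2 called none lower in these 7. In TH17 cells of the Dohh table, Nob1 and Rrp1b were lower, which makes 2 members. Of all genes tested, 27.7%, 29.3%, 22.2% and 26.9% fell in the Odc table and 24.1%, 21.5%, 24.9% and 25.0% in the Dohh table.

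**Figure D2:**
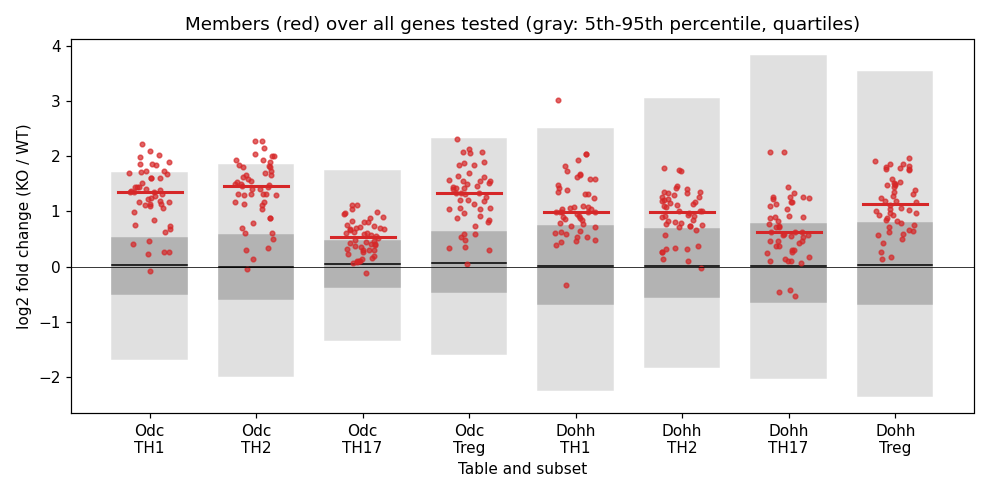
Log2 fold change of labelled over WT libraries (vertical axis) for each comparison (horizontal axis). Red points are the 50 genes, spread sideways for legibility, with their median as a red line, over the range from the 5th to the 95th percentile (light gray), the range between quartiles (dark gray) and the median (black line) of all genes tested. The median of the 50 genes is highest in TH2 cells of the Odc table (1.45) and lowest in TH17 cells of the same table (0.54). Without WT replicate 4 of the Odc table the highest is in Treg cells of that table (1.76) and the lowest in TH17 cells of the Dohh table (0.62).

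Across the 8 comparisons, 16 genes rose in all 8, another 16 in 7, 8 in 6, 8 in 5, 1 in 3 and 1 in 2. Of the 12924 genes tested in both tables, 6.1% rose in all 8 and 5.15% in 7. Of the 16, 3 rose over 2-fold each time, namely Gar1 and Nhp2, which are core proteins of the box H/ACA snoRNP, and Rrp9, the U3 snoRNP protein of the processome. Of all genes tested in both tables, 1.28% did so. At the other end, 7 genes passed 2-fold in no comparison, namely Npm1, Polr1c, Utp14a, Utp15, Bms1, Ddx10 and Rrp1, as did 67.5% of all genes. All counts across the 8 comparisons include WT replicate 4 of the Odc table. Without it, 40 rather than 21 members rose in TH17 cells of that table. Nolc1, Nop56 and Nop58 were among them and then rose in all 8.

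**Figure D3:**
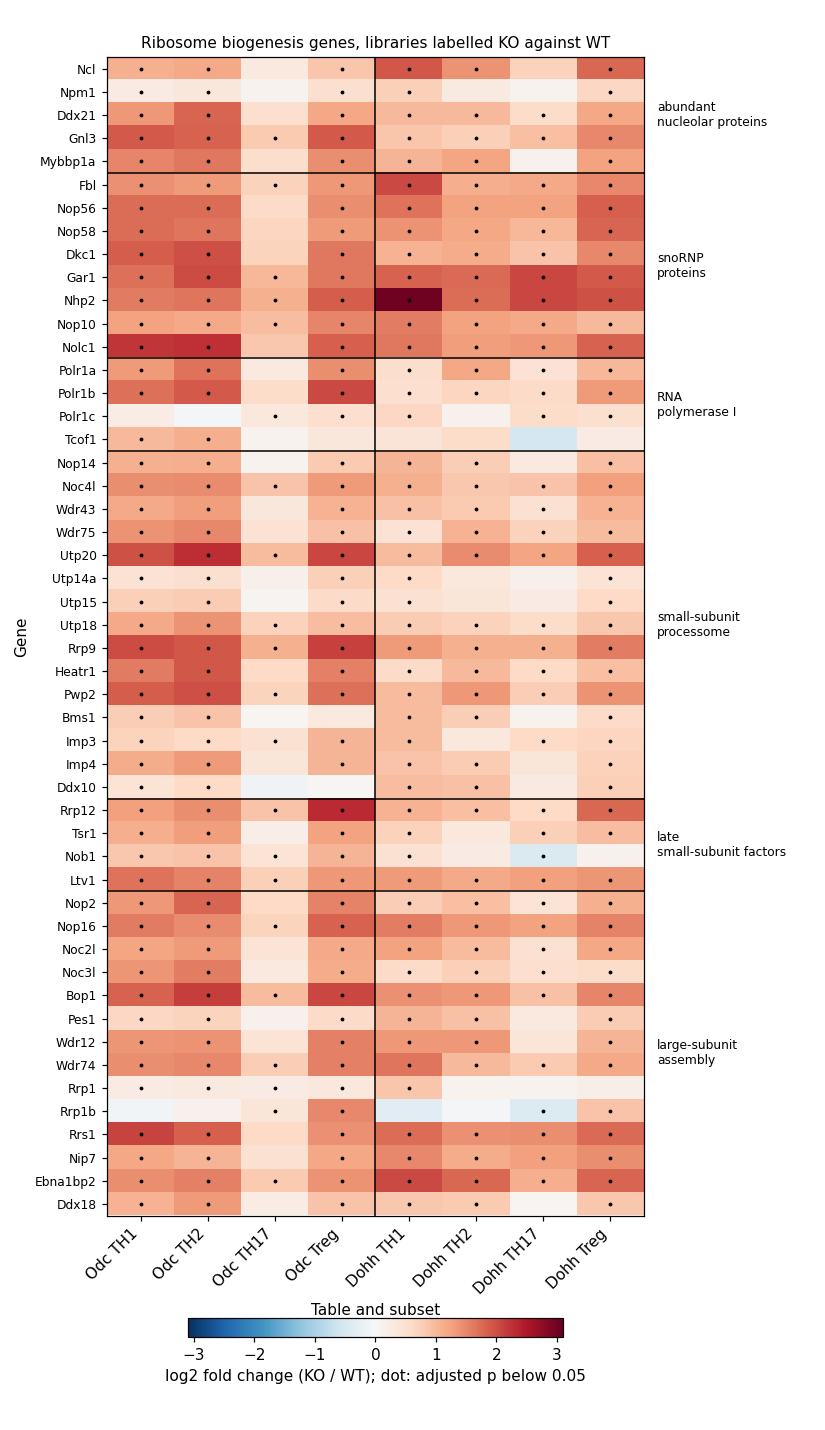
Log2 fold change of labelled over WT libraries for the 50 genes (rows, grouped by role) in the 8 comparisons (columns), with red for higher and blue for lower in labelled libraries; a dot marks an adjusted p below 0.05. The values run from -0.54 for Tcof1 in TH17 cells to 3.02 for Nhp2 in TH1 cells (1.99 without labelled replicate 2), both in the Dohh table.

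Sequence around the start sites was examined for the 6-base E-box CACGTG, the site bound by MYC and MAX, because the members moved together. RefSeq promoter windows of GRCm38.p6, from 250 bases before to 50 bases after the start, matched 44 of the 50 members by symbol. The motif reads the same on both strands, and 9 of the 44 genes held it (20.5%), against 8.09% of the 27025 genes of that table. In the 250 bases before the start alone, 3 of the 44 genes held it (6.82%), against 6.86% of all genes. The matches below are printed with up to 12 bases on each side, 5′ to 3′ on the strand of the gene, with the E-box in capitals.
Imp4, chr1:34439696-34439725, plus strand: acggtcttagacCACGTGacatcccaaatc
Nop2, chr6:125131811-125131840, plus strand: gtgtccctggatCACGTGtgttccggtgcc
Utp18, chr11:93885769-93885798, minus strand: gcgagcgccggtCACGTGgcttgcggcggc
Pes1, chr11:3963965-3963994, plus strand: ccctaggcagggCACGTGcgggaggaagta
Wdr43, chr17:71616220-71616249, plus strand: cgcccgggcgaaCACGTGgctgccgcggag
Tsr1, chr11:74898092-74898121, plus strand: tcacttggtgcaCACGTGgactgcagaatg
Ltv1, chr10:13193092-13193121, minus strand: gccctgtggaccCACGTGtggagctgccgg
Utp20, chr10:88826765-88826789, minus strand: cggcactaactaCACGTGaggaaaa
Mybbp1a, chr11:72441355-72441376, plus strand: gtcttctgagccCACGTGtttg
Imp4, Nop2 and Utp18 have the motif upstream, beginning 121, 60 and 20 bases before the start. The other 6 have it in the transcribed stretch, beginning at base 3 in Pes1, 18 in Wdr43, 25 in Tsr1, 29 in Ltv1, 38 in Utp20 and 41 in Mybbp1a. A match is a run of letters and was not tested as a binding site.

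The 4 RNA polymerase I genes include Polr1a and Polr1b, which encode the 2 largest subunits and form the catalytic center, Polr1c, a subunit shared with RNA polymerase III, and Tcof1, the nucleolar protein treacle that links the polymerase to ribosomal RNA genes. Polr1b was the most changed of them in the Odc table. In Treg cells it measured 11.9, 14.8, 10.7 and 42.5 CPM in the WT libraries and 78.5, 95.2, 76.2 and 80.5 CPM in those labelled Odc-/-, with no overlap, a log2 fold change of 2.05 ± 0.33 (SE) on the log2 scale, adjusted p = 9.53e-06, which was 2.73 without WT replicate 4. In TH1 cells it measured 23.0, 25.7, 16.5 and 44.1 CPM in the WT libraries and 49.8, 115, 95.6 and 98.5 CPM in those labelled Odc-/- (1.71 ± 0.33 (SE) on the log2 scale, adjusted p = 1.06e-04), and in TH2 cells 27.5, 26.9, 25.7 and 39.7 CPM in the WT libraries and 131, 96.5 and 106 CPM in those labelled Odc-/- (1.89 ± 0.34 (SE) on the log2 scale, adjusted p = 4.97e-05). TH17 cells did not pass the test, with 53.5, 42.3, 44.9 and 69.4 CPM in the WT libraries and 65.9, 81.5, 88.4 and 75.3 CPM in those labelled Odc-/- (0.57 ± 0.31 (SE) on the log2 scale, adjusted p = 0.136), where the groups overlapped through WT replicate 4. Without that replicate in any subset the value was 0.73 and passed.

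Polr1b rose in every subset of the Dohh table. It measured 68.9, 80.5 and 64.7 CPM in the WT libraries and 111, 101 and 97.8 CPM in those labelled Dohh-/- in TH1 cells (0.53 ± 0.16 (SE) on the log2 scale, adjusted p = 0.00982) and 27.6, 27.8 and 29.9 CPM in the WT libraries and 63.1, 67.4 and 83.2 CPM in those labelled Dohh-/- in Treg cells (1.32 ± 0.17 (SE) on the log2 scale, adjusted p = 1.57e-06). The rises were 0.67 in TH2 and 0.59 in TH17 cells. The groups did not overlap in any of the 4 subsets.

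Polr1a followed Polr1b in the Odc table, with log2 fold changes of 1.31, 1.69 and 1.45 in TH1, TH2 and Treg cells and 0.31 in TH17 cells, which did not pass (adjusted p = 0.296, edgeR) but passed at 0.46 without WT replicate 4 in any subset. In TH2 cells its libraries measured 45.4, 43.5, 46.4 and 67.1 CPM in the WT libraries and 185, 138 and 167 CPM in those labelled Odc-/-. It rose in all 4 subsets of the Dohh table, from 0.46 in TH17 cells (adjusted p = 0.0494, a call lost when any 1 of its 6 libraries was left out) to 1.19 in TH2 cells.

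Polr1c changed less and did not pass the test in TH2 cells of either table (-0.038 and 0.14, adjusted p = 0.787 and 0.466, edgeR). In Treg cells of the Odc table it measured 50.3, 53.7, 48.4 and 67.9 CPM in the WT libraries and 78.9, 77.5, 84.9 and 76.4 CPM in those labelled Odc-/-, a difference of 0.53 ± 0.10 (SE) on the log2 scale, adjusted p = 1.04e-04. Its rises in the other subsets were 0.32 in TH17 cells of the Odc table and 0.64, 0.57 and 0.51 in TH1, TH17 and Treg cells of the Dohh table. TH1 cells of the Odc table gave 0.23 (adjusted p = 0.0600) and passed without WT replicate 4 (0.29).

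Tcof1 rose in 2 of the 8 comparisons. In TH1 cells of the Odc table it measured 99.1, 106, 94.3 and 141 CPM in the WT libraries and 167, 257, 213 and 242 CPM in those labelled Odc-/- (1.0 ± 0.20 (SE) on the log2 scale, adjusted p = 1.49e-04), and in TH2 cells 115, 122, 112 and 157 CPM in the WT libraries and 304, 233 and 295 CPM in those labelled Odc-/- (1.14 ± 0.21 (SE) on the log2 scale, adjusted p = 5.72e-05), with no overlap in either. In Treg cells WT replicate 4 was the highest of the 8 libraries, and the difference of 0.35 did not pass (adjusted p = 0.121). Without that replicate it was 0.70 and passed. None of the 4 subsets of the Dohh table passed with edgeR. In TH17 cells its libraries measured 125, 109.9 and 120.2 CPM in the WT libraries and 116, 85.5 and 41.9 CPM in those labelled Dohh-/-, a difference of -0.54 ± 0.25 (SE) on the log2 scale, adjusted p = 0.0764, which passed at -0.89 without labelled replicate 1 and was -0.21 without labelled replicate 3.

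Of the members, 5 encode abundant nucleolar proteins, namely Ncl (nucleolin), Npm1 (nucleophosmin), Ddx21 (an RNA helicase), Gnl3 (nucleostemin) and Mybbp1a. All 5 rose in TH1, TH2 and Treg cells of the Odc table, and 1 of 5, Gnl3, in TH17 cells. Without WT replicate 4 in any subset, 4 of 5 rose in TH17 cells, all but Npm1. For Dohh, 5, 4, 2 and 5 rose in TH1, TH2, TH17 and Treg cells. Ncl (chr1:86344719-86359400, minus strand, GRCm38), which hosts small nucleolar RNA genes in its introns, measured 865, 909, 925 and 1127 CPM in the WT libraries and 1381, 2332, 2227 and 2259.7 CPM in those labelled Odc-/- in TH1 cells of the Odc table (1.10 ± 0.14 (SE) on the log2 scale, adjusted p = 1.78e-06). In TH2 cells it measured 1162, 1081, 1134 and 1277 CPM in the WT libraries and 2833, 2315 and 2706 CPM in those labelled Odc-/- (1.17 ± 0.15 (SE) on the log2 scale, adjusted p = 9.21e-07). The groups did not overlap in either, and labelled replicate 1 was the lowest labelled library in TH1 cells. In Treg cells it measured 884, 999.5, 817 and 1405 CPM in the WT libraries and 1703, 1911, 1929 and 1871 CPM in those labelled Odc-/- (0.85 ± 0.14 (SE) on the log2 scale, adjusted p = 1.44e-05).

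In TH17 cells of the Odc table Ncl measured 1294, 1308, 1315 and 1644 CPM in the WT libraries and 1790.0, 1730.0, 1619 and 1745 CPM in those labelled Odc-/-, and the groups overlapped because WT replicate 4 lay above labelled replicate 3 (0.31 ± 0.14 (SE) on the log2 scale, adjusted p = 0.0752). Without WT replicate 4 of these cells the difference was 0.40 and passed. For Dohh, Ncl measured 298, 219 and 590.4 CPM in the WT libraries and 1278, 2269 and 689.5 CPM in those labelled Dohh-/- in TH1 cells (1.94 ± 0.36 (SE) on the log2 scale, adjusted p = 1.57e-04), the widest spread among labelled libraries for this gene. Treg cells measured 402, 341 and 345 CPM in the WT libraries and 919.9, 1075 and 1715 CPM in those labelled Dohh-/- (1.77 ± 0.35 (SE) on the log2 scale, adjusted p = 3.05e-04). The rise was 1.40 in TH2 cells, and TH17 cells gave 0.72, which did not pass (adjusted p = 0.0859) although the groups did not overlap.

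Npm1 (chr11:33152287-33163206, minus strand) changed far less than Ncl on the log2 scale. In TH2 cells of the Odc table it measured 2011, 1917, 2013 and 1919.8 CPM in the WT libraries and 2556, 2374 and 2555 CPM in those labelled Odc-/- (0.34 ± 0.092 (SE) on the log2 scale, adjusted p = 0.00223), without overlap. It rose by 0.27 in TH1 and 0.49 in Treg cells of the Odc table and by 0.74 and 0.65 in the same subsets of the Dohh table. TH2 cells of the Dohh table gave 0.27, which did not pass (adjusted p = 0.344, edgeR) although the groups did not overlap. In TH17 cells it gave 0.11 and 0.10 in the Odc and Dohh tables, and neither passed (adjusted p = 0.311 and 0.721). Both Dohh-table rises were lost when single libraries were left out, with values down to 0.55 in TH1 cells without labelled replicate 2 and to 0.33 in Treg cells without labelled replicate 3. Mybbp1a rose by 1.44 to 1.63 in TH1, TH2 and Treg cells of the Odc table and by 1.04 to 1.24 in those of the Dohh table, and gave 0.55 and 0.14 in TH17 cells, where neither passed. The first passed at 0.75 without WT replicate 4 in any subset.

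**Figure D4:**
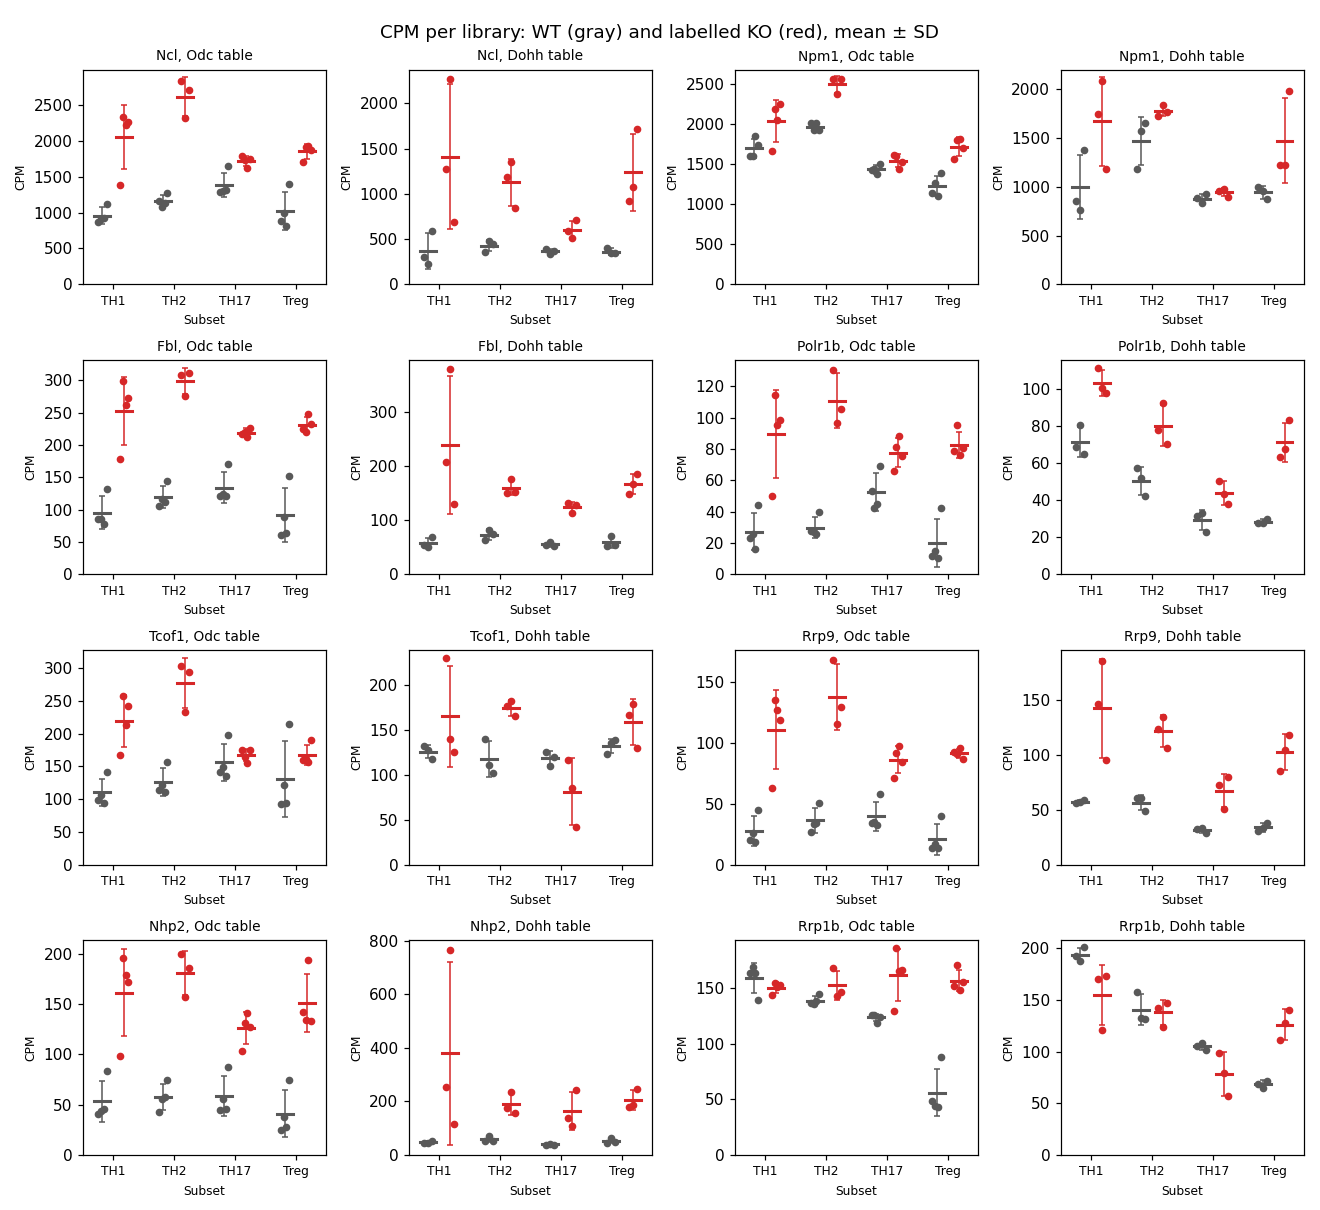
CPM per library (vertical axis, from 0) by subset (horizontal axis) for 8 of the genes in each table, with WT libraries in gray and labelled libraries in red; horizontal lines are means and bars are SDs over libraries. Fbl in Treg cells of the Odc table runs from 60.8 to 151.6 CPM in WT and from 219.8 to 247.5 CPM in labelled libraries, whereas Rrp1b in TH17 cells of the Dohh table is lower in each of the labelled libraries (56.8 to 98.9 CPM) than in WT (101 to 108 CPM).

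The 8 snoRNP proteins had the highest median log2 fold change of the 6 roles in all 8 comparisons, and all 8 of them rose over 2-fold in TH1, TH2 and Treg cells of both tables. In TH17 cells 4 of 8 rose in the Odc table, 8 of 8 without WT replicate 4, and 8 of 8 in the Dohh table. Their medians were 1.72, 1.71, 0.77 and 1.57 in the Odc table and 1.66, 1.25, 1.21 and 1.81 in the Dohh table, for TH1, TH2, TH17 and Treg cells. Fbl, the methyltransferase fibrillarin of box C/D snoRNPs, lies at chr7:28169710-28179269, plus strand. It measured 85.5, 86.3, 77.4 and 132 CPM in the WT libraries and 178, 299, 262 and 273 CPM in those labelled Odc-/- in TH1 cells (1.41 ± 0.21 (SE) on the log2 scale, adjusted p = 7.19e-06) and 121, 124, 121 and 170.2 CPM in the WT libraries and 218, 220.3, 212 and 227 CPM in those labelled Odc-/- in TH17 cells (0.71 ± 0.20 (SE) on the log2 scale, adjusted p = 0.00626). In TH1 cells of the Dohh table it measured 54.1, 51.4 and 69.2 CPM in the WT libraries and 208, 381 and 130.4 CPM in those labelled Dohh-/- (2.04 ± 0.25 (SE) on the log2 scale, adjusted p = 2.25e-06), and replicate 2 was the highest library. Fbl rose in all 8 comparisons, and labelled libraries lay above WT in each.

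Gar1 and Nhp2 sit with Dkc1, the pseudouridine synthase, and Nop10 on box H/ACA RNAs. In TH1 cells of the Dohh table Nhp2 measured 45.5, 44.8 and 50.1 CPM in the WT libraries and 254, 767 and 117 CPM in those labelled Dohh-/-, which gave 3.02 ± 0.45 (SE) on the log2 scale, adjusted p = 2.34e-05. One labelled library, replicate 2, lay far above the other 2, and all 3 lay above WT. Without it the value was 1.99 and passed. In Treg cells of the Dohh table Nhp2 measured 43.9, 62.4 and 49.3 CPM in the WT libraries and 179, 187 and 246 CPM in those labelled Dohh-/- (1.98 ± 0.43 (SE) on the log2 scale, adjusted p = 8.03e-04). Its rises in the Odc table ran from 1.11 in TH17 to 1.88 in Treg cells. Gar1 rose by 1.04 to 2.03 in the Odc table and by 1.75 to 2.07 in the Dohh table. In TH17 cells of the Dohh table it measured 15.1, 18.9 and 12.2 CPM in the WT libraries and 60.9, 45.6 and 89.1 CPM in those labelled Dohh-/-.

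Nolc1, the nucleolar phosphoprotein Nopp140 that escorts snoRNPs, had the largest change of the 50 in TH1 cells of the Odc table. It measured 51.3, 56.6, 44.8 and 111 CPM in the WT libraries and 155, 379, 343 and 354 CPM in those labelled Odc-/- (2.22 ± 0.38 (SE) on the log2 scale, adjusted p = 4.13e-05). In Treg cells it measured 38.4, 52.4, 33.9 and 161 CPM in the WT libraries and 239, 252, 274 and 264 CPM in those labelled Odc-/- (1.85 ± 0.38 (SE) on the log2 scale, adjusted p = 1.78e-04), with WT replicate 4 far above the other WT libraries and below every labelled one, and gave 2.63 without that replicate. In TH17 cells the groups overlapped, and 0.83 did not pass (adjusted p = 0.0644). DESeq2 called it at 0.80, and edgeR called it at 1.15 without WT replicate 4. In the Dohh table Nolc1 rose by 1.30 to 1.82.

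The small-subunit processome assembles on the nascent precursor around U3 RNA. Its 15 members rose in 15, 15, 6 and 13 cases in TH1, TH2, TH17 and Treg cells of the Odc table and in 15, 12, 9 and 15 of the Dohh table. The count for TH17 cells of the Odc table was 10 without WT replicate 4. Utp20 and Rrp9 rose in all 8 comparisons. Rrp9 in Treg cells of the Odc table measured 13.4, 16.7, 13.6 and 39.7 CPM in the WT libraries and 92.0, 91.0, 95.7 and 86.1 CPM in those labelled Odc-/- (2.13 ± 0.31 (SE) on the log2 scale, adjusted p = 2.45e-06), and in Treg cells of the Dohh table it measured 30.6, 33.2 and 38.4 CPM in the WT libraries and 85.3, 105 and 119 CPM in those labelled Dohh-/- (1.59 ± 0.21 (SE) on the log2 scale, adjusted p = 2.07e-06). Utp20 in TH2 cells of the Odc table measured 29.0, 19.2, 21.8 and 31.3 CPM in the WT libraries and 150.3, 87.8 and 131 CPM in those labelled Odc-/- (2.28 ± 0.38 (SE) on the log2 scale, adjusted p = 2.18e-05). All labelled libraries lay above WT in these 3 comparisons.

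Ddx10, a helicase of the same particle, behaved otherwise. It measured 52.7, 59.6, 47.9 and 81.8 CPM in the WT libraries and 50.7, 73.9, 61.2 and 62.9 CPM in those labelled Odc-/- in Treg cells of the Odc table, where the groups overlapped (0.04 ± 0.15 (SE) on the log2 scale, adjusted p = 0.825), and gave -0.12 in TH17 cells (adjusted p = 0.513). It rose in TH1 and TH2 cells of that table by 0.42 and 0.61. With Dohh it rose by 0.96, 0.92 and 0.74 in TH1, TH2 and Treg cells. Without labelled replicate 3, the Treg value was 0.42 and no longer passed.

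Late factors of the small subunit are Rrp12, which aids export, Ltv1 and Tsr1, which bind the precursor particle, and Nob1, the endonuclease that makes the final cut of 18S ribosomal RNA. Rrp12 and Ltv1 rose in all 8 comparisons. Tsr1 shares 32.3% of its exonic bases with Srr on the other strand and is given with that limit. It rose in TH1, TH2 and Treg cells of the Odc table (1.13, 1.30 and 1.26) and in TH1, TH17 and Treg cells of the Dohh table (0.72, 0.74 and 0.96).

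Nob1 (chr8:107412486-107425051, minus strand) went both ways. In Treg cells of the Odc table it measured 35.4, 39.2, 31.5 and 60.9 CPM in the WT libraries and 84.4, 82.9, 86.1 and 90.6 CPM in those labelled Odc-/- (1.04 ± 0.16 (SE) on the log2 scale, adjusted p = 3.12e-06), and it rose by 0.84, 0.88 and 0.42 in the other 3 subsets. In TH17 cells of the Dohh table it measured 82.6, 90.8 and 79.7 CPM in the WT libraries and 66.6, 59.3 and 58.6 CPM in those labelled Dohh-/-. There all labelled libraries lay below WT, and Nob1 fell (-0.46 ± 0.13 (SE) on the log2 scale, adjusted p = 0.00608). This call held when each of the 6 libraries was left out (-0.52 to -0.40). It rose in TH1 cells of the Dohh table (0.48), and its values were 0.26 in TH2 and 0.14 in Treg cells, neither of which passed.

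The 14 large-subunit factors include the PeBoW proteins Pes1, Bop1 and Wdr12, the methyltransferase Nop2, the helicase Ddx18 and the 5S particle factor Rrs1. They rose in 13, 13, 6 and 14 cases in TH1, TH2, TH17 and Treg cells of the Odc table and in 13, 12, 9 and 13 of the Dohh table. With WT replicate 4 left out, 12 of 14 rose in TH17 cells of the Odc table, with Nop2 among them at 0.86 (0.61 with all libraries, adjusted p = 0.0703, edgeR). Ebna1bp2, the mammalian counterpart of yeast Ebp2, rose in all 8. In TH1 cells of the Dohh table it measured 42.1, 46.6 and 64.1 CPM in the WT libraries and 202, 309 and 118 CPM in those labelled Dohh-/- (2.04 ± 0.24 (SE) on the log2 scale, adjusted p = 1.13e-06). Nop2 rose by 1.35, 1.80 and 1.54 in TH1, TH2 and Treg cells of the Odc table and by 0.42 to 1.11 in the Dohh table. Rrp1 moved little in the Odc table (0.26 to 0.34, all 4 called) and was called in the Dohh table only in TH1 cells, at 0.87, where it measured 219, 204 and 268 CPM in the WT libraries and 357, 659 and 244 CPM in those labelled Dohh-/-. Without labelled replicate 2 that value was 0.38 and did not pass.

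Rrp1b (chr17:32036100-32062865, plus strand), the paralog of Rrp1, rose in 3 comparisons and fell in 1. In Treg cells of the Odc table it measured 48.7, 44.2, 42.6 and 87.7 CPM in the WT libraries and 152, 170.4, 148 and 155 CPM in those labelled Odc-/- (1.49 ± 0.15 (SE) on the log2 scale, adjusted p = 5.08e-09). In Treg cells of the Dohh table it measured 68.5, 64.4 and 71.8 CPM in the WT libraries and 111, 128 and 140.0 CPM in those labelled Dohh-/- (0.89 ± 0.17 (SE) on the log2 scale, adjusted p = 1.99e-04). Labelled libraries lay above WT in both. In TH1 cells it gave -0.076 and -0.33 in the Odc and Dohh tables (adjusted p = 0.666 and 0.111), and in TH2 cells 0.14 and -0.026 (adjusted p = 0.451 and 0.915). In TH17 cells it rose in the Odc table (0.39 ± 0.14 (SE) on the log2 scale, adjusted p = 0.0268) and fell in the Dohh table (-0.42 ± 0.17 (SE) on the log2 scale, adjusted p = 0.0412). The fall rested on few libraries, since 5 of the 6 leave-out fits ended the call, with values of -0.22 without labelled replicate 3 to -0.45 without WT replicate 3. Labelled replicates 1, 2 and 3 of these cells measured 98.9, 79.4 and 56.8 CPM for Rrp1b, and their summed levels of 6 myeloid genes were 568, 8761 and 11456 CPM, against 39.6, 38.6 and 38.5 CPM in WT. Replicates 2 and 3 stand apart in the myeloid sum. They do so in labelled Treg cells of the Dohh table as well, with 339.9, 4322 and 4735 CPM in labelled replicates 1, 2 and 3 against 30.3, 28.3 and 29.2 CPM in WT. The part of these sums in the values of Rrp1b, Nob1 and the other members in TH17 and Treg cells was not tested.

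Whether an effect differed between subsets was tested as a genotype by subset interaction. An interaction was called for 17 of the 50 members in the Odc table, against 34.8% of all genes, and for 5 in the Dohh table, against 17.9%. With a block for the replicate number, 42 were called in the Odc table, against 43.2% of all genes, and with a block for each genotype and number 49, against 52.9%. These blocks gave 5 and 3 in the Dohh table, against 19.2% and 19%. The count of the Odc table was 44 without replicate 4 of both genotypes and 46 without WT replicate 4 alone, against 29.2% and 40.9% of all genes. It was 10, 1 and 2 without replicates 1, 2 and 3, against 31.1%, 11.5% and 20.8%. That of the Dohh table was 1, 0 and 19 without replicates 1, 2 and 3, against 6.41%, 3.91% and 19.2%. Rrp1b had the lowest adjusted p in both tables (5.85e-06 and 0.00146). Next for Odc were Ncl (0.00546) and Tcof1 (0.0107) with their smallest effects in TH17 cells. Next for Dohh were Nob1 (0.00498) and Mybbp1a (0.0355) with their smallest or a negative effect in TH17 cells.

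WT cells themselves differed between subsets in 36 of 50 members in the Odc table and in 27 of 50 in the Dohh table, against 71.1% and 40.1% of all genes. Without WT replicate 4 the first count was 47, against 70.5% of all genes, and it was 14, 11 and 10 without replicates 1, 2 and 3, against 64.5%, 55.6% and 59.2%. The second was 16 and 14 without replicates 1 and 2, against 20.9% and 22.2%. The order of the subsets was not the same in the tables, which were scaled separately. By WT mean, 42 of 50 members were highest in TH17 cells in the Odc table (40 without WT replicate 4), against 26.4% of all genes tested. For Dohh, 34 of 50 were lowest in TH17 cells, against 22.8% of all genes, and 31 were highest in TH1 cells, against 23.8%. Polr1b had WT means of 27.3 ± 11.8, 29.9 ± 6.51, 52.5 ± 12.2 and 20.0 ± 15.1 CPM (SD, n = 4) in TH1, TH2, TH17 and Treg cells of the Odc table. They were 71.4 ± 8.18, 50.5 ± 7.61, 29.2 ± 5.39 and 28.5 ± 1.27 CPM in the Dohh table (SD, n = 3). TH17 and Treg cells of the Dohh table lay within their spread of each other, as did TH1 and TH2 cells of the Odc table.

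Rrp1b had the same order in both tables. Its WT means were 159 ± 13.4 CPM in TH1, 139 ± 4.19 in TH2, 123 ± 3.24 in TH17 and 55.8 ± 21.4 in Treg cells of the Odc table (SD, n = 4; adjusted p for any difference 4.68e-09, edgeR). They were 194 ± 6.44, 140.4 ± 14.9, 105 ± 3.53 and 68.3 ± 3.71 CPM in the Dohh table (SD, n = 3; adjusted p 2.36e-06, edgeR). In libraries labelled Odc-/- the means were 150.4 ± 4.91, 152 ± 13.2, 161 ± 23.5 and 157 ± 9.68 CPM, and in those labelled Dohh-/- they were 155 ± 29.4, 138 ± 12.3, 78.4 ± 21.1 and 126 ± 14.6 CPM. Polr1c was also lower in WT TH17 and Treg cells (62.9 ± 5.63 and 55.1 ± 8.85 CPM) than in TH1 and TH2 cells (83.0 ± 7.54 and 109.7 ± 18.4 CPM; SD, n = 4) of the Odc table, and for Dohh it had 55.8 ± 3.66 and 59.2 ± 7.95 against 71.0 ± 7.18 and 107 ± 17.1 CPM (SD, n = 3). Npm1 was highest in TH2 cells of both (1965 ± 54.0 and 1471 ± 249 CPM).

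**Figure D5:**
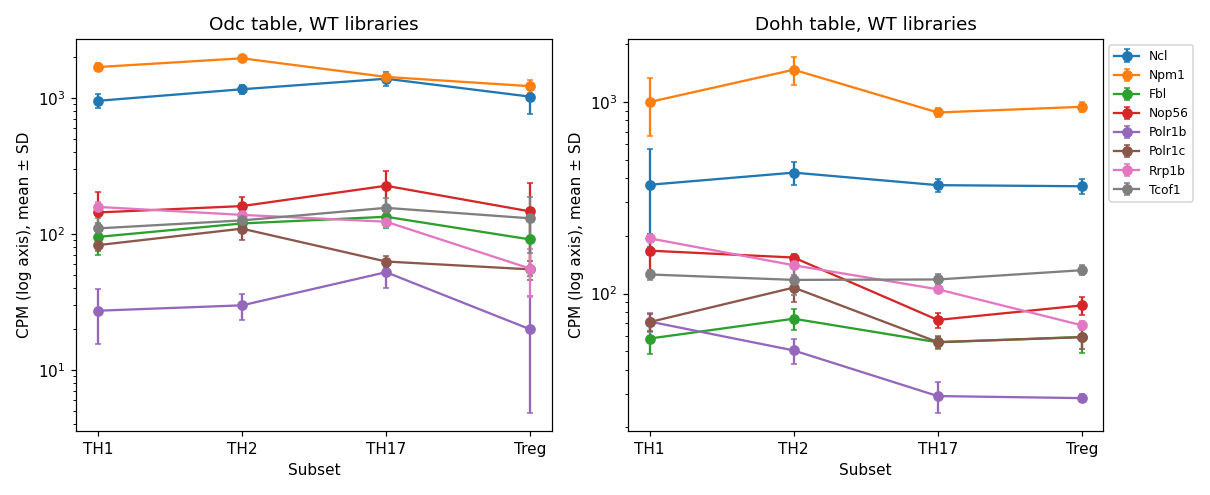
WT levels of 8 of the genes in CPM (vertical log axis, points at the mean with bars of 1 SD over libraries) in the 4 subsets (horizontal axis), for the Odc table (left) and the Dohh table (right); lines join the points of a gene. Rrp1b declines from TH1 to Treg cells in both tables, from 159 to 55.8 CPM and from 194 to 68.3 CPM.

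Levels of different genes are compared per length of their exons. Npm1 was the highest of the 50 in WT TH1 cells, at 636 ± 45.3 CPM per kilobase in the Odc table (SD, n = 4) and 375 ± 124 in the Dohh table (SD, n = 3). Utp20 was the lowest, at 2.16 ± 0.767 and 2.95 ± 0.484 CPM per kilobase. Ncl was second in the Odc table (93.9 ± 11.4) and ranked 10 in the Dohh table (36.2 ± 19.2). Rrp1 came next there and was second in the Dohh table (70.8 ± 4.30 and 69.0 ± 10.0 CPM per kilobase).

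The Odc and Dohh effects were compared in 1 fit of both tables, as the difference between the log2 fold changes of the same subset, each against the WT libraries of its own table. A difference was called for 5 of the 50 members in TH1 cells, 4 in TH2, 3 in TH17 and 4 in Treg cells, against 21.9%, 18.4%, 24.5% and 29.9% of all genes tested. The table and the deleted gene cannot be told apart beyond each table's own WT libraries. Counts of 0 to 12 were obtained in TH1 and TH2 cells and of 2 to 12 in Treg cells when replicate numbers of either table were left out. Leaving out WT replicate 4 of the Odc table gave 14, 16, 3 and 14 members in TH1, TH2, TH17 and Treg cells, against 22.1%, 18.7%, 23% and 29.2% of all genes. With the replicate block 12, 9, 5 and 5 differed, against 25.3%, 20.9%, 27.8% and 32.9%. Of the 16 differences called, 3 were called again when each library of the subset was left out in turn, an alternative chosen after the data were seen, namely those of Nob1 in TH17 and Treg cells and of Rrp1b in TH17 cells. A difference that missed the threshold does not show that the effects were alike.

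Polr1b rose more in the Odc table, with differences (Dohh minus Odc) of -1.16 ± 0.38 (SE) in TH1 and -1.23 ± 0.40 in TH2 cells (adjusted p = 0.0265 and 0.0245, edgeR). Nob1 differed in 3 subsets, with values of -0.63 in TH2, -0.81 in TH17 and -0.87 in Treg cells (adjusted p = 0.0258, 0.00226 and 6.87e-04). Rrp1b differed in TH17 (-0.75 ± 0.21, adjusted p = 0.00714) and Treg cells (-0.57 ± 0.21, adjusted p = 0.0341), and Tsr1 in TH2 cells (-0.98 ± 0.29, adjusted p = 0.0130). Another 3 rose more in the Odc table, namely Wdr75 and Pwp2 in TH1 cells (-0.92 and -0.86) and Gnl3 in TH2 cells (-1.09). Another 5 rose more in the Dohh table, namely Nhp2 and Rrp1 in TH1 cells (1.45 and 0.64), Nip7 in TH17 cells (0.85) and Ncl and Ddx10 in Treg cells (0.95 and 0.74), with adjusted p from 0.0146 for Ddx10 to 0.0366 for Ncl. All 5 of these lost their call without 1 library or more. Without labelled replicate 2 of the Dohh table the differences of Nhp2 and Rrp1 in TH1 cells were 0.44 and 0.18, and neither passed. Without labelled replicate 3 of that table those of Ncl and Ddx10 in Treg cells were 0.64 and 0.46, and neither passed. The Nip7 difference did not pass at 0.65 without WT replicate 4 of the Odc table or at 0.72 without labelled replicate 3 of the Dohh table. Nhp2 (1.20) and Ncl (0.82) did not pass without WT replicate 4 in any subset either.

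The rest of the pathway was followed in a wider list of 125 ribosome biogenesis genes that holds none of the 50. For Odc, 103, 106, 63 and 100 of 125 rose in TH1, TH2, TH17 and Treg cells, with 6, 4, 6 and 5 lower, and 106, 107, 90 and 103 rose without WT replicate 4. For Dohh, 95, 78, 65 and 91 of the 123 tested rose, with 0, 2, 10 and 3 lower. Of all genes tested, 25.6% to 32.9% rose in the Odc table and 23.8% to 28.4% in the Dohh table. The medians of this list were 0.81, 0.89, 0.40 and 0.77 in the Odc table and 0.90, 0.63, 0.46 and 0.73 in the Dohh table, below those of the 50 members in every comparison. Members and list were chosen with earlier results of these data known, so this order is not a test.

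Genes of other programs also moved in these comparisons, and their part in the result was not tested. Of 24 cell cycle genes, 17, 15, 10 and 7 rose and 2, 2, 0 and 8 fell in TH1, TH2, TH17 and Treg cells of the Odc table (16, 15, 16 and 12 rose without WT replicate 4), and 21, 13, 15 and 24 rose in the Dohh table, with 1 lower in TH2 cells. Their summed level in the Dohh table was 2482 to 3064 CPM in WT libraries and 3374 to 6849 CPM in labelled ones, without overlap. In the Odc experiment the sums did not overlap in TH1 cells (3953 to 4126 CPM in WT and 4446 to 6670.1 CPM in labelled libraries) or in TH2 cells (4195 to 4670.5 and 5589 to 6752 CPM). They overlapped in TH17 cells (4889 to 6694 and 6345 to 6833 CPM) and in Treg cells (5282 to 7129 and 4935 to 6141 CPM), where the labelled libraries were mostly the lower. Among markers of other cell types, 5 or 6 of 6 basophil and mast cell genes rose in all 8 comparisons, with sums of 3.47 to 44.7 CPM in WT and 22.3 to 312 CPM in labelled libraries of the Odc table and 1.89 to 23.5 and 39.7 to 1123 CPM in the Dohh table. B cell genes rose in 6, 6, 1 and 6 of 6 cases in the Odc table (3.31 to 96.2 CPM in WT and 13.6 to 502 CPM in labelled libraries) and in 1, 0, 2 and 2 of 5 in the Dohh table (3.69 to 56.3 and 5.21 to 57.5 CPM). Myeloid genes rose in 0, 0, 5 and 5 of 6 cases in the Odc table (6.66 to 49.7 and 6.16 to 757 CPM) and in 2, 5, 6 and 5 in the Dohh table (20.9 to 39.6 and 5.21 to 11456 CPM), and 1 fell in TH1 and in TH2 cells of the Odc table. When WT replicate 4 was left out, 3 of 6 myeloid and 0 of 6 B cell genes rose in TH17 cells and 4 of 6 basophil and mast cell genes in TH2 cells. Itgam had no counts in the Dohh table. CD8+ T and NK cell genes rose in 3, 2, 4 and 5 of 6 cases in the Odc table (18.9 to 181 and 23.7 to 642 CPM) and 3, 3, 4 and 4 of 5 in the Dohh table (27.4 to 128 and 74.6 to 879 CPM). Summed erythroid genes stayed at or below 3.07 CPM in the Odc table and reached 56.4 CPM in libraries labelled Dohh-/-, where 2 or 3 of the 3 tested rose, and CD4+ T cell markers fell in 2 to 6 of 9 cases.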

How the data were processed

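Raw read counts per gene were deposited by the authors in 2 tables of 47937 genes, 1 for the Odc experiment (31 libraries) and 1 for the Dohh experiment (24 libraries). Per the study's methods, stranded polyadenylated libraries were mapped to mm10 with STAR and counted with featureCounts, and DESeq2 and deepTools were also used. Versions, and whether counting used the strand, are not given in the sources used here. Counts cover whole genes, so a deletion of some exons need not lower a gene's count, and reads in overlapping genes may be shared.

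Ensembl identifiers were paired with symbols through GENCODE M21 (GRCm38), which matched 47224 of them. Counts were scaled by TMM and tested with edgeR 4.0.16 in R 4.3.3 by quasi-likelihood, with a filter on low counts (filterByExpr) and all groups of a table in 1 fit, following the groups of the study. P-values were adjusted by the Benjamini-Hochberg method over all genes tested. Calls required an adjusted p below 0.05, and where stated a change above 2-fold. CPM are TMM-scaled, and levels of the 2 tables, scaled separately, were not tested against each other. Interactions and differences between the Odc and Dohh effects were tested in the same way, the latter over genes tested in both tables.

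The labels do not say that replicates are separate mice, and p-values measure the spread between these libraries, which may be technical. The members and lists were chosen with earlier results of these data known. The named members are the best known (Ncl, Npm1, Fbl and the RNA polymerase I genes) and those with the 3 lowest and 3 highest mean changes in each table. Those with the 3 lowest adjusted p for the interaction, for WT differences and for the difference between effects were added, which gives 20 members. Their library values are printed for some comparisons only, and for Tsr1, Mybbp1a and Nop2 only as flagged values. Alternatives were RLE size factors, DESeq2 1.42.0, no filter on low counts, a mean count of at least 50, a replicate block, only the 2 groups compared, and leaving out each replicate. Scripts were tested on simulated data. In TH1 cells 55 of 67 genes changed 2-fold were recovered in the Odc design with 8 false calls among 13298 genes tested, and 40 of 67 in the Dohh design with 5 among 13451.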

Additional observations from a re-analysis of the deposited data

Results flagged for a closer look

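In 147 sets of 4 libraries of 1 group of the Odc table, 33 values were far from the other 3 by Dixon's criterion, where chance sets apart about 1 in 20 groups. The sets share libraries, and the members move together, so the 33 cannot be set against that rate. Groups of 3, which is every group of the Dohh table, could not be examined in this way. In WT replicate 4 of the TH17 cells, Ncl (1644 CPM), Fbl (170.2 CPM), Polr1a (109 CPM), Rrp9 (57.5 CPM), Nolc1 (217 CPM), Gar1 (67.7 CPM), Ebna1bp2 (116 CPM), Mybbp1a (421 CPM) and Nop2 (125 CPM) stood apart, as did the median deviation of the 50 genes (0.41 on the log2 scale). In WT replicate 4 of the Treg cells, Polr1b (42.5 CPM), Rrp9 (39.7 CPM), Nolc1 (161 CPM), Rrp1b (87.7 CPM), Mybbp1a (321 CPM), Nop2 (84.5 CPM) and Tsr1 (88.7 CPM) stood apart. In WT replicate 4 of the TH2 cells, Polr1a (67.1 CPM), Polr1b (39.7 CPM), Rrp1 (265 CPM), Gar1 (60.2 CPM) and Mybbp1a (261 CPM) stood apart, as did the median deviation of the 50 genes (0.36 on the log2 scale). In labelled replicate 1 of the TH1 cells, Ncl (1381 CPM), Rrp1 (254 CPM), Nolc1 (155 CPM) and Nop2 (109 CPM) stood apart. In WT replicate 4 of the TH1 cells, Fbl (132 CPM), Rrp1b (139 CPM) and Nhp2 (83.3 CPM) stood apart. In labelled replicate 4 of the Treg cells, Tcof1 (189.6 CPM) stood apart. In labelled replicate 3 of the Treg cells, Nhp2 (194 CPM) stood apart. In labelled replicate 2 of the Treg cells, Tsr1 (129.5 CPM) stood apart.

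In the Odc table the effect of genotype differed between subsets, by the interaction term of the edgeR fit, for Tcof1 (adjusted p = 0.0107), Ncl (adjusted p = 0.00546), Polr1b (adjusted p = 0.0356), Tsr1 (adjusted p = 0.0161), Polr1a (adjusted p = 0.0116), Ddx10 (adjusted p = 0.0248), Rrp1b (adjusted p = 5.85e-06) and Polr1c (adjusted p = 0.0299). In the Dohh table the effect of genotype differed between subsets, by the interaction term of the edgeR fit, for Nob1 (adjusted p = 0.00498), Polr1b (adjusted p = 0.0485), Mybbp1a (adjusted p = 0.0355) and Rrp1b (adjusted p = 0.00146). Of the 50 members, 17 and 5 were called in the Odc and Dohh tables, against 34.8% and 17.9% of all genes. The Odc count ran from 1 without replicate 2 (11.5% of all genes) to 44 without replicate 4 (29.2%). That of the Dohh table ran from 0 without replicate 2 (3.91%) to 19 without replicate 3 (19.2%). In TH1 cells the Dohh effect minus the Odc effect was 1.45 for Nhp2, -1.16 for Polr1b and 0.64 for Rrp1 on the log2 scale, each with an adjusted p below 0.05. In TH2 cells the Dohh effect minus the Odc effect was -0.63 for Nob1, -1.23 for Polr1b and -0.98 for Tsr1 on the log2 scale, each with an adjusted p below 0.05. In TH17 cells the Dohh effect minus the Odc effect was -0.81 for Nob1 and -0.75 for Rrp1b on the log2 scale, each with an adjusted p below 0.05. In Treg cells the Dohh effect minus the Odc effect was -0.87 for Nob1, 0.95 for Ncl, 0.74 for Ddx10 and -0.57 for Rrp1b on the log2 scale, each with an adjusted p below 0.05. Without labelled replicate 2 of the Dohh table the differences of Nhp2 and Rrp1 in TH1 cells were 0.44 and 0.18, and without labelled replicate 3 those of Ncl and Ddx10 in Treg cells were 0.64 and 0.46, and none of these 4 passed. Only the differences of Nob1 in TH17 and Treg cells and of Rrp1b in TH17 cells were called again without each library of the subset in turn. No explanation of these values was tested.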

How the results depend on the processing

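The members' median kept its sign under every alternative. Each named member called in the main or the alternative fit also kept its sign. Counts, and members called in neither fit, were not part of this check of direction. A mean count of at least 50 changed no count by over 1.5 times. RLE size factors changed only the Dohh interaction, to 3 members. With DESeq2 the interaction counts were 29 for Odc and 8 for Dohh. Without the filter on low counts, more genes were tested, and the counts were 11 for the Odc interaction, 19 for WT differences in the Odc table, 1 for members lower in Dohh TH17 cells, and 0, 1 and 2 for differences between the Odc and Dohh effects in TH1, TH2 and Treg cells. A fit of only the 2 groups compared called 37 higher in Odc TH17 cells and 1 lower in Dohh TH17 cells. Without WT replicate 4 in all subsets, an alternative chosen after the data were seen, 40 members rose in Odc TH17 cells, 11 of them over 2-fold, the Odc interaction count was 46, and differences between the Odc and Dohh effects numbered 14 in TH1, 16 in TH2 and 14 in Treg cells. The cause of these shifts was not tested.

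The labels give same-numbered WT and labelled libraries no link but the number. Their deviations correlated above 0.1 in 7 of 15 pairs of the Odc table and 1 of 12 of the Dohh table. Pairs with different numbers did so in 9 of 45 and 1 of 24 cases, so a link in the Odc table is not excluded. With the replicate block, 35 members were higher in Odc TH17 cells, 5 of them over 2-fold, the Odc interaction count was 42, and the differences numbered 12 in TH1, 9 in TH2 and 5 in TH17 cells. It changed no other count by over 1.5 times. Libraries of the same genotype and number correlated above 0.1 in 44 of 45 pairs of subsets for Odc and 28 of 36 for Dohh. With a block for each genotype and number, added after the data were seen, the interaction counts were 49 and 3.

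Leaving out each replicate in turn gave 11 to 31 members higher in Odc TH17 cells and 2 to 11 over 2-fold. The interaction counts were 1 to 44 for Odc and 0 to 19 for Dohh, and WT differences from 10 to 45 and from 14 to 26. In Dohh TH17 cells 1 to 3 members were lower, and the members' median was 0.54 to 0.69. Differences between the Odc and Dohh effects ranged from 0 to 12 in TH1, 0 to 12 in TH2, 1 to 3 in TH17 and 2 to 12 in Treg cells. Among the 20 named members in 8 comparisons, leaving out a single library ended the call in 60 fits and made one in 7, and leaving out WT replicate 4 in all subsets made one in 8.

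The 3 or 4 libraries per group limit what could be called. On simulated counts for TH1 cells, 24 of 67 genes changed 1.5-fold were recovered in the Odc design and 5 of 67 in the Dohh design. Few genes were changed there, in 1 group, whereas 29.1% of all genes rose and 27.7% fell in TH1 cells of the Odc table. The recovery therefore need not hold for the data.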
